A study of Mus musculus with 9 samples.

Results

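The genes of mouse chromosome 16 were followed in the Panc02 line, a mouse pancreatic ductal adenocarcinoma line, and in a pair of clones derived from it. A gene entered when the first chromosome entry of its annotation was 16 and at least 3 of the 9 libraries held 10 or more counts, and Trp63, Mx1, Mx2 and the genes named Rpl or Rps were left out. This gave 460 genes of the 49671 in the count tables, out of 1190 annotated to the chromosome. The chromosome was chosen by its lower median count level in the KO_1E7 clone relative to the parental cells, measured in these same libraries, so the differences between those groups are described here and not tested as a set. Of the 460 genes, 380 held 10 or more counts in all 9 libraries, and 387 were protein coding by GENCODE release M21. The 11 genes with 10 or more counts in exactly 3 libraries had between 52 and 145 counts over all libraries (median 77), and the 23 genes left out with exactly 2 such libraries had between 51 and 96 (median 63). Atp13a5, Epha6 and Chodl reached 10 counts in KO_1E7 libraries only and entered through that group.

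There were 3 libraries in each of 3 groups, all of untreated cells grown in DMEM with 10% fetal bovine serum. The parental libraries are labelled Wild type, and the KO_1E7 libraries come from clone 1E7, labelled VPAC2 knock out. The CRISPR_1G2 libraries come from clone 1G2, whose genotype is given as CRISPR-wild type, although the series' design counts both clones among the CRISPR-KO cells. Each edited group is therefore 1 clone, and the labels do not say whether its 3 libraries are separate cultures, so the p-values measure the spread between these libraries, which may be technical. In the headers of the count table the third library of each group carries the code NSG, which no label explains, and the others carry codes written like dates. Parental 1 and KO_1E7 1 share such a code, and so do parental 2 and CRISPR_1G2 1. VPAC2, encoded by Vipr2, is a receptor for vasoactive intestinal peptide that raises cyclic AMP. Its transcript, on another chromosome, had 6, 3 and 12 counts in the parental libraries, 1, 2 and 1 in KO_1E7 and 1, 13 and 12 in CRISPR_1G2, too few to check the labels.

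Mouse chromosome 16 carries no single pathway, but blocks of it keep the gene order of parts of human chromosomes. Its proximal part holds most genes of the human 22q11 interval, whose loss of a copy causes DiGeorge syndrome, and its distal part holds many genes of human chromosome 21, the chromosome gained in Down syndrome. Across its length lie receptors for interferons, kinases of growth signalling and many genes of mitochondria, translation and DNA repair that every dividing cell uses.

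Promoter sequences from RefSeq (build GRCm38.p6, 250 bases before to 50 bases after a start) were matched by symbol to 340 of the 460 genes, with 413 promoters. The 3 shown belong to genes whose levels are given below, and the first pair carries the palindromic cyclic AMP response element TGACGTCA, the binding site of CREB proteins, in capitals. It lies at bases 176 to 183 of the 300 in Senp2 (chr16:22009234-22009533, plus strand) and at bases 254 to 261 in Umps (chr16:33966989-33967288, minus strand). The promoter of Prodh (chr16:18089141-18089440, minus strand) has no such match.

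Senp2: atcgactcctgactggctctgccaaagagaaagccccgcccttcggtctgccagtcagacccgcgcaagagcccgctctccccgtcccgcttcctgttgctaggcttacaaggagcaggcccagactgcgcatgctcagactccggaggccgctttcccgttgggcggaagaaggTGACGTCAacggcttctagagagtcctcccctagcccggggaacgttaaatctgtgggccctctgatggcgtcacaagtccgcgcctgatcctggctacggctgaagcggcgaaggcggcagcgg

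Umps: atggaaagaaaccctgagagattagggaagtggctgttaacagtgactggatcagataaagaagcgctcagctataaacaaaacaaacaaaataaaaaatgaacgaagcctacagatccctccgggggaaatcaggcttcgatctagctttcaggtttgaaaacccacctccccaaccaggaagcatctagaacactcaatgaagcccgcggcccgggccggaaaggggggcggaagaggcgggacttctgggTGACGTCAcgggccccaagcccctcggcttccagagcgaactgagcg

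Prodh: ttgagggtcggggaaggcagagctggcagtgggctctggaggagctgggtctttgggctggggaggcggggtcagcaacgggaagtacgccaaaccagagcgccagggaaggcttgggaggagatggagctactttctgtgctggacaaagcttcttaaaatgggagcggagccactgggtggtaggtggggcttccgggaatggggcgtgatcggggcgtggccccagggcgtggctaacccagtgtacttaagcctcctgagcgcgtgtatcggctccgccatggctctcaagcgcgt

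The element, read on both strands, was in 16 of the 413 promoters (3.87%), in 2.98% of the promoters of the other genes tested and in 1.79% of all promoters in the table. The chromosome 16 promoters had a median of 22 CG dinucleotides, against 19 in those of the other genes tested. A match is a stretch of letters, and binding was not measured.

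The libraries held between 27898705 and 51878289 gene counts. Ductal markers were detected (9 of 9), with a summed level between 899 and 2114 CPM, mostly from Krt8 and Krt18. CPM is the normalised CPM of edgeR with its TMM scaling. Krt7 was at 4.01 to 5.31 CPM in KO_1E7 and at 13.7 or more elsewhere. Epcam was at 0.745 to 3.43 CPM in KO_1E7 and at 3.52 or more elsewhere. The remaining ductal markers overlapped between KO_1E7 and the other libraries. The islet hormone genes were at or near 0. Of the acinar markers only the elastase gene Cela1 reached 1 CPM, at 13.1, 7.37 and 12.0 CPM in KO_1E7, above the 1.01 to 2.68 CPM of the other libraries. Of 6 immune markers 4 reached 1 CPM in some library, with summed levels of 2.79 to 9.12 CPM in parental, 6.32 to 7.44 in KO_1E7 and 7.98 to 13.7 in CRISPR_1G2, and the leukocyte gene Ptprc was at 0.0276 and 0.0831 CPM in parental 2 and 3 and between 1.84 and 3.86 elsewhere. Of 5 fibroblast markers 3 did, with sums of 16.9 to 25.7, 19.3 to 26.3 and 24.9 to 47.8 CPM in the same order. The part of such cells in the results below was not tested. The share of counts on the 460 genes was 2.36%, 2.59% and 5.25% in the parental libraries, 1.82%, 1.89% and 1.74% in KO_1E7 and 2.67%, 2.59% and 2.87% in CRISPR_1G2. Parental library 3 stood apart through RNA related to ribosomal RNA. There, Gm23935, a short gene on chromosome 16 and the most abundant in its window, was at 40031 CPM, against 1694 and 3664 in the other parental libraries and between 854 and 2792 in the edited clones. Without Gm23935, Gm15564 and CT010467.1 the shares became 2.20%, 2.25% and 2.15% in parental, 1.66%, 1.81% and 1.65% in KO_1E7 and 2.42%, 2.40% and 2.77% in CRISPR_1G2. The KO_1E7 libraries had the lowest shares both with and without these genes.

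The level of the chromosome was summarised in each library as the median, over the 460 genes, of the log2 difference from the parental mean, minus the same median over all 16049 genes tested. It was 0.00, 0.02 and -0.03 in the parental libraries, -0.38, -0.28 and -0.41 in KO_1E7 and 0.09, 0.10 and 0.23 in CRISPR_1G2. The KO_1E7 libraries lay below all others and the CRISPR_1G2 libraries above all others. The group means were -0.00 ± 0.03, -0.36 ± 0.07 and 0.14 ± 0.08 (SD, n = 3). In KO_1E7 libraries 1, 2 and 3, 356, 337 and 348 of the 460 genes were below their parental mean. In bulk RNA, fewer cells expressing a gene and less RNA per cell cannot be told apart.

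**Figure D1:**
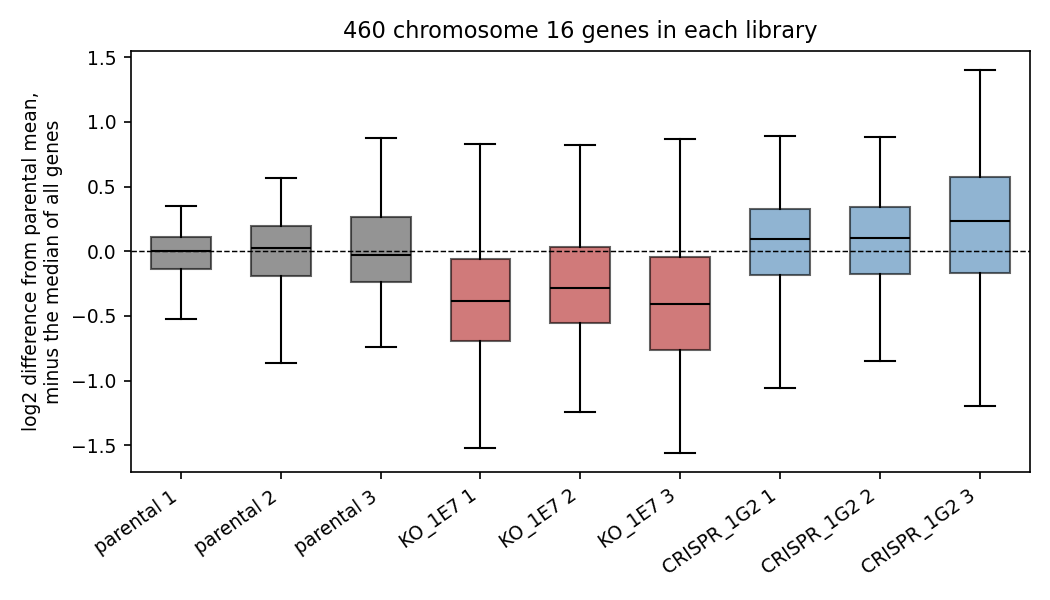
Each box shows the 460 chromosome 16 genes in 1 library as log2 difference from the parental mean minus the median of all genes tested (line, median; box, quartiles; whiskers, 5th to 95th percentile). The 3 KO_1E7 medians lie between -0.41 and -0.28 and the 3 CRISPR_1G2 medians between 0.09 and 0.23.

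Gene by gene, log2 fold changes and adjusted p-values came from edgeR's quasi-likelihood test over all 16049 genes with Benjamini-Hochberg adjustment, and a gene was called at an adjusted p below 0.05. Between KO_1E7 and parental, 46 of the 460 genes were called lower and 5 higher (11.1% in all), where 2.74% of all genes tested were called lower and 2.49% higher (5.23% in all). Since that contrast chose the chromosome, its calls and values are given as a description, without p-values. The median log2 fold change of the 460 genes was -0.35 relative to that of all genes, with quartiles at -0.62 and -0.01. Between KO_1E7 and CRISPR_1G2, which shares the KO_1E7 libraries and so is not independent of the choice of chromosome, 125 were called lower and 13 higher, where 6.92% of all genes were called lower and 5.55% higher (12.5% in all), and the median was -0.50. The lower calls of both contrasts, which share the KO_1E7 libraries, had 44 genes in common, and the higher calls 3. Over all 16049 genes tested these overlaps were 353 and 338. In 167 of the 460 genes (36.3%) all 3 KO_1E7 libraries lay below all 6 others, and in 21 (4.57%) above them, each against 12.1% of all genes tested.

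These calls rested on particular libraries. Against parental, the 51 calls became 0 without KO_1E7 library 1 or without KO_1E7 library 3, 8 without parental 1, 17 without parental 2, 25 without parental 3, 22 without CRISPR_1G2 1, 25 without CRISPR_1G2 2 and 113 without CRISPR_1G2 3. Against CRISPR_1G2, the 138 calls became 55 without KO_1E7 1, 41 without KO_1E7 3 and 84 without CRISPR_1G2 1. The calls among all 16049 genes moved with them. Against parental these went from 839 to 50 (0.312%) without KO_1E7 1, 24 (0.15%) without KO_1E7 3, 204 (1.27%) without parental 1 and 1992 (12.4%) without CRISPR_1G2 3, and against CRISPR_1G2 from 2001 to 610 (3.8%), 488 (3.04%) and 978 (6.09%) in the order above. The medians of the 460 genes moved less, and stayed between -0.39 and -0.32 against parental and between -0.56 and -0.46 against CRISPR_1G2. Every call of a named gene between KO_1E7 and parental given below was lost without KO_1E7 1 and without KO_1E7 3, with its direction kept. Of 53 genes followed as calls against CRISPR_1G2, 24 lost the call without KO_1E7 1 and 27 without KO_1E7 3, none changing direction. The 24 that passed with any 1 library left out were Chodl, which had entered through KO_1E7, Col8a1, Dgcr2, Dnm1l, Ercc4, G730013B05Rik, Gspt1, Hes1, Mylk, Opa1, Pak2, Parl, Polq, Prodh, Ripk4, Rrn3, Senp2, St6gal1, Trmt2a, Ufd1, Umps, Urb1, Usp7 and Zdhhc23.

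Between CRISPR_1G2 and parental, which shares the parental libraries, edgeR called 0 genes higher and 1 lower, where 0.231% of all genes tested were called. At an unadjusted p below 0.05, 39 were higher (8.48%, against 3.4% of all genes) and 16 lower (4.34% of all genes), and DESeq2 called 2 higher and 4 lower (0.43% and 1.01% of all genes). The median of the 460 genes was 0.15 relative to all genes and 32.2% were below the median of all genes. Without CRISPR_1G2 library 3 it was 0.08. Among the third libraries, 1 against 1, it was 0.26, and among the first and second libraries 0.08. With the replicate number as a block, 2 genes were called lower. The median of KO_1E7 against parental was -0.36 both among the third libraries and among the others. Between libraries that share a code, 1 against 1, it was -0.41 for KO_1E7 1 against parental 1, and 0.09 for CRISPR_1G2 1 against parental 2.

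Among the chromosomes, chromosome 16 had the second lowest median in KO_1E7 against parental after chromosome 7 (-0.42), and also in KO_1E7 against CRISPR_1G2, where both were at -0.50. In CRISPR_1G2 against parental its median was the highest, ahead of chromosome 14 and chromosome X, both at 0.12.

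**Figure D2:**
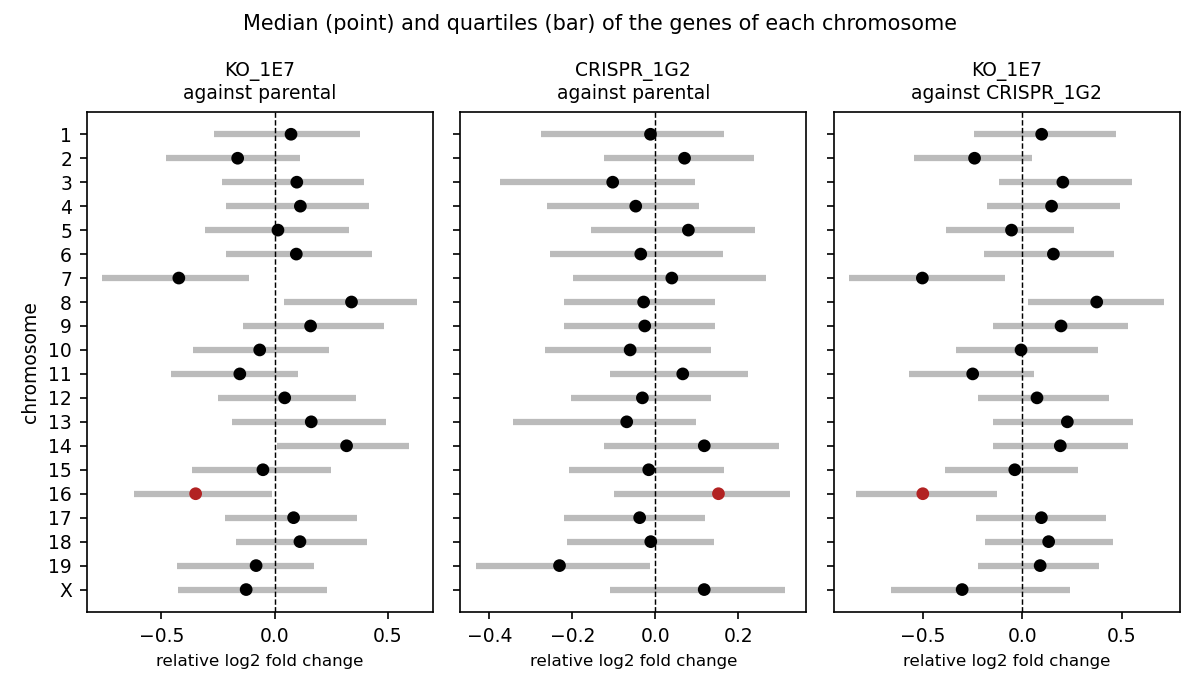
Points are the median and bars the quartiles of the relative log2 fold change (minus the median of all genes tested) of the genes on each chromosome, in the 3 contrasts, with chromosome 16 in red. Chromosome 16 lies at -0.35, 0.15 and -0.50, and chromosome 7 at -0.42, 0.04 and -0.50.

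The lower level in KO_1E7 was not even along the chromosome. By start position, in windows of 10 Mb numbered 1 to 10 from the proximal end, the medians of KO_1E7 against parental were -0.42, -0.43, -0.41, -0.48 and -0.37 in windows 1 to 5, then 0.02, -0.04 and -0.12 in windows 6 to 8, and -0.21 and -0.24 in windows 9 and 10. The first 5 windows held 323 genes, of which 39 were called lower, where 2.74% of all genes tested were called lower. Of the 323, 135 (41.8%) had all KO_1E7 libraries below the other 6, against 12.1% of all genes tested. Windows 6 to 8 held 60 genes, of which 9 (15.0%) did so, a share near that of all genes, and windows 9 and 10 held 77, of which 23 (29.9%) did so. Windows 7, 8 and 9 held the fewest genes, 11, 15 and 16.

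The same windows were low in each KO_1E7 library. In window 4, the library medians were -0.60, -0.35 and -0.56 in KO_1E7, -0.03, -0.03 and 0.04 in parental and 0.12, 0.21 and 0.34 in CRISPR_1G2. In window 6 they were -0.06, -0.00 and 0.05 in KO_1E7, within the range of the CRISPR_1G2 libraries (-0.07, -0.11 and 0.33). KO_1E7 therefore lay apart from the other groups in window 4 and overlapped them in window 6. In CRISPR_1G2 against parental the window medians ranged from -0.24 in window 8 (15 genes) to 0.24 in window 5. The 6 genes of window 8 at or above the median level had a median of 0.25 in that contrast. The window medians of KO_1E7 against CRISPR_1G2 were -0.52, -0.69, -0.57, -0.75 and -0.50 in windows 1 to 5 and between -0.34 and -0.04 in the rest. With windows of 5 Mb, the stretch from 50 to 55 Mb, with 6 genes, had a median of 0.52 in KO_1E7 against parental. The stretch from 45 to 50 Mb, inside window 5, was at -0.12 (16 genes). The most distal stretch, from 95 to 100 Mb in window 10, was at -0.48 (14 genes), as low as windows 1 to 5. On the other chromosomes, 89 of 251 windows of 10 Mb had a median below 0 in that contrast, and 9 of 10 did on chromosome 16. Chromosome 7 had all 15 of its windows below 0, chromosome 2 had 16 of 19 and chromosome 11 had 11 of 13.

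**Figure D3:**
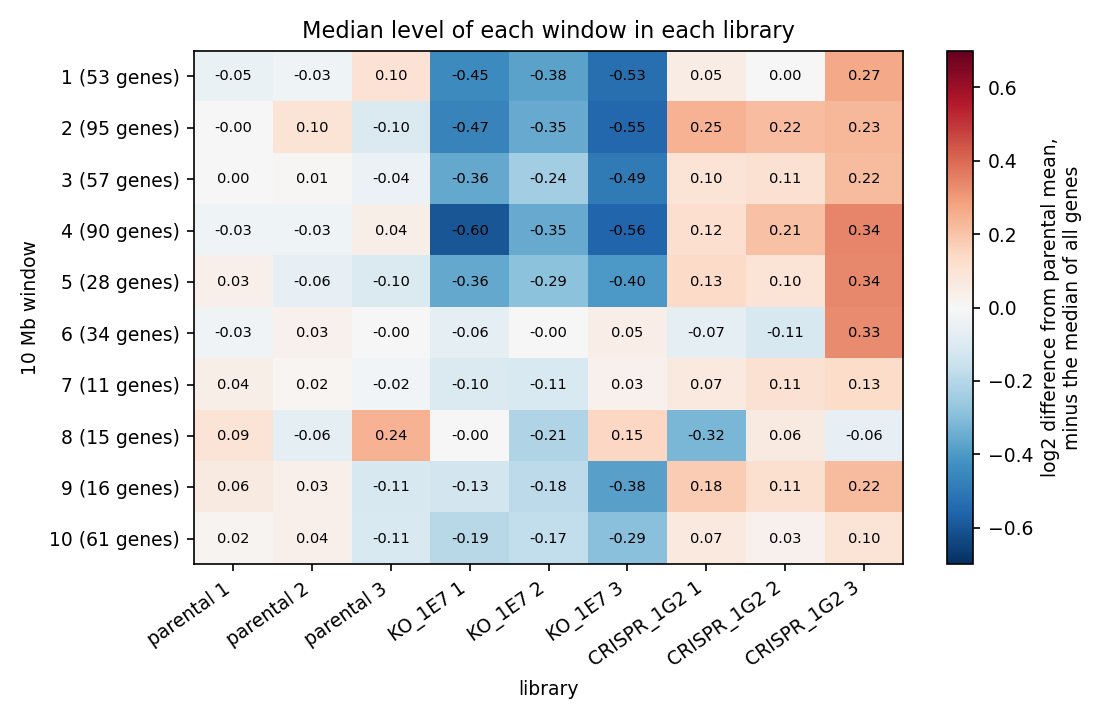
Rows are the 10 Mb windows of chromosome 16 from the proximal end, columns the 9 libraries, and each cell the median log2 difference from the parental mean minus that of all genes tested. In windows 1 to 5 every KO_1E7 cell is below every cell of the other groups, from -0.60 to -0.24, and in window 6 the KO_1E7 cells lie between -0.06 and 0.05.

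**Figure D4:**
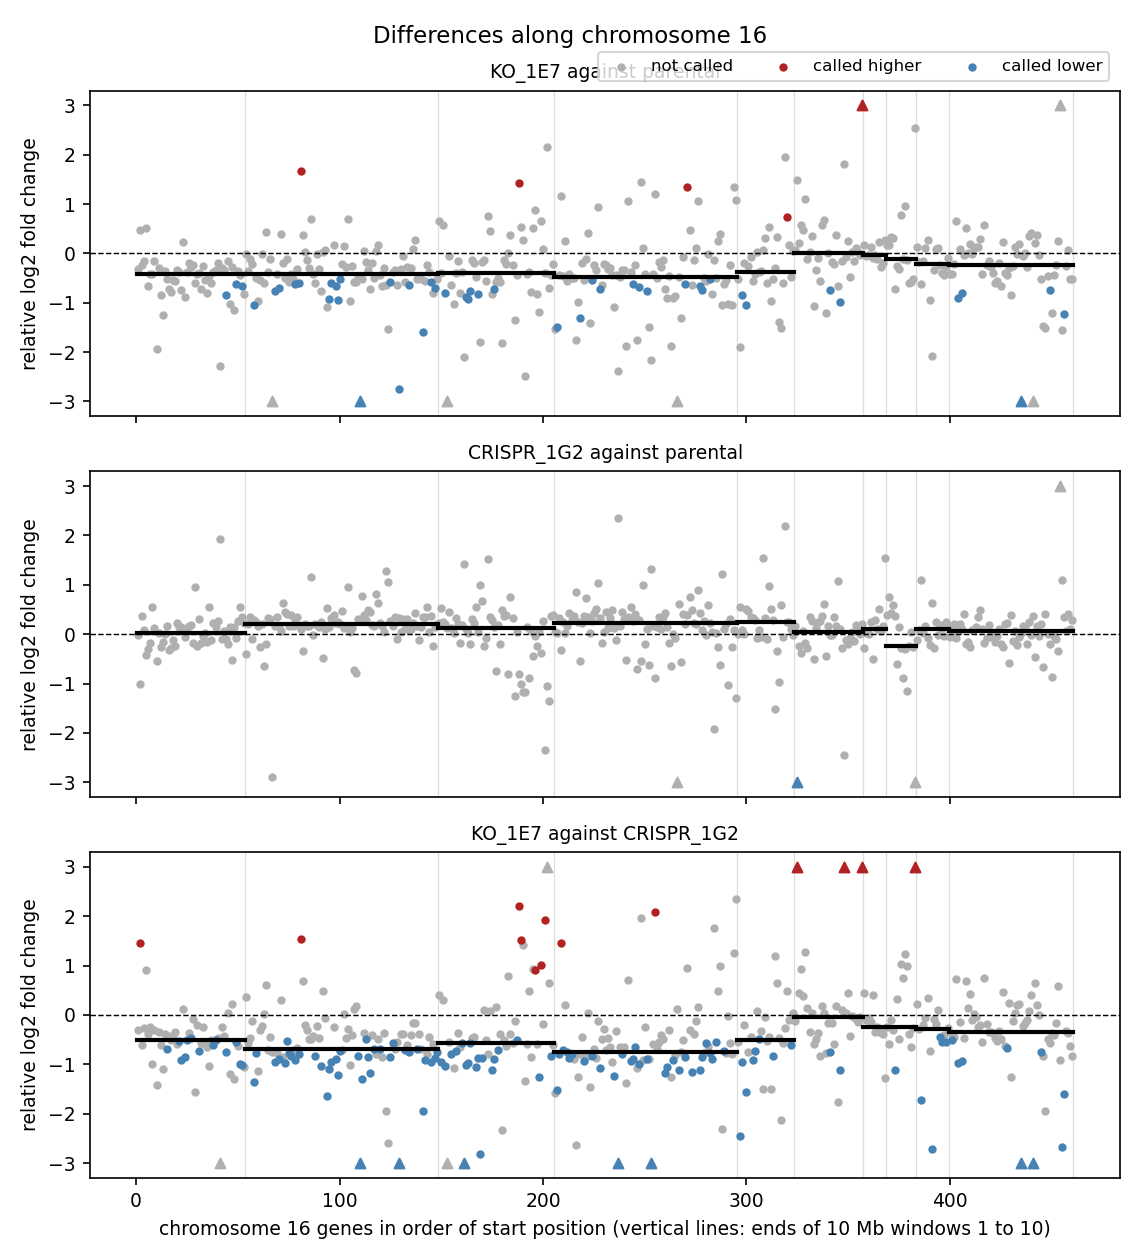
Each point is 1 of the 460 genes in order of start position, with its relative log2 fold change in each contrast, and black lines are the window medians (triangles, genes beyond the axis range of 3 either way). In KO_1E7 against parental the lines lie between -0.48 and -0.37 in windows 1 to 5 and near 0 in window 6.

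Of the most abundant genes of the windows, by mean CPM, Usp7 and Tomm70a were called lower in both contrasts and Naa50 in 1. Usp7, a deubiquitinase of the p53 pathway in window 1 (chr16:8689595-8792308), was at 200, 228 and 178 CPM in parental, 117, 139 and 122 in KO_1E7 and 277, 264 and 244 in CRISPR_1G2. The 3 groups did not overlap, and KO_1E7 was lower than parental by a log2 fold change of -0.68 ± 0.13 (SE) and lower than CRISPR_1G2 by -1.05 ± 0.13 (adjusted p = 0.00351). Tomm70a, a receptor of the mitochondrial import machinery in window 6 (chr16:57121714-57154530), was at 242, 216 and 239 CPM in parental, 126, 147 and 133 in KO_1E7 and 221, 209 and 273 in CRISPR_1G2. It was called lower in both contrasts (-0.78 ± 0.14, and -0.79 ± 0.14 with an adjusted p of 0.00991), although the median of its window was near 0. Naa50, an N-terminal acetyltransferase in window 5, fell against CRISPR_1G2 (-0.94 ± 0.17, adjusted p = 0.0115) and was not called against parental (-0.59 ± 0.17).

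Others of these abundant genes were called in neither contrast. Eif4g1, the scaffold of cap-dependent translation initiation, was at 1202, 1568 and 916 CPM in parental, 1113, 979 and 1052 in KO_1E7 and 1706, 1570.5 and 1089 in CRISPR_1G2. The libraries of parental and KO_1E7 overlapped. Tfrc, the transferrin receptor, was at 178, 199 and 280 CPM in the third library of parental, KO_1E7 and CRISPR_1G2, below both other libraries of its group each time. App, the amyloid precursor gene in window 9, was at 452, 371 and 462 CPM in parental, 568, 504 and 457 in KO_1E7 and 334, 387 and 515 in CRISPR_1G2. Its groups overlapped. Son, a splicing factor in window 10, was at 349, 373 and 391 CPM in parental, 317, 328 and 337 in KO_1E7 and 386, 392 and 502 in CRISPR_1G2, with a log2 fold change against parental of -0.18 ± 0.13. Cggbp1 and Cxadr were not called either.

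Among the called genes with a mean of at least 1 CPM in the higher group, the 8 largest falls between KO_1E7 and parental were those of Cbr3, Prodh, Gnb1l, Hes1, 0610012G03Rik, Ripk4, Zdhhc23 and Dexi. Some genes that were not called had log2 fold changes further from 0 than most of these, such as Rtp4 (-2.51 ± 0.64) and Adamts5 (-2.10 ± 0.58). Prodh, the mitochondrial proline dehydrogenase (chr16:18060357-18090203), was at 9.04, 6.51 and 6.62 CPM in parental, 0.621, 1.95 and 0.596 in KO_1E7 and 10.7, 9.02 and 8.67 in CRISPR_1G2. Every KO_1E7 library lay below the others, and the gene was lower by -2.78 ± 0.45 against parental and by -3.13 ± 0.46 against CRISPR_1G2 (adjusted p = 0.00567). Cbr3, a carbonyl reductase of the distal part (chr16:93683215-93690990), was at 2.46, 3.34 and 1.14 CPM in parental, 0.0847, 0.454 and 0.268 in KO_1E7 and 2.66, 2.87 and 1.68 in CRISPR_1G2. Over pooled counts it held 36 in KO_1E7 and 252 in parental, a normalised ratio of 0.128 with a 95% interval of 0.0875 to 0.182 for counting error only.

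Hes1, the Notch-responsive repressor (chr16:30064384-30067796), was at 19.1, 15.0 and 17.5 CPM in parental, 7.20, 6.48 and 4.41 in KO_1E7 and 21.9, 17.3 and 13.8 in CRISPR_1G2. KO_1E7 lay below both groups, which overlapped each other, and the log2 fold changes were -1.51 ± 0.24 against parental and -1.55 ± 0.24 against CRISPR_1G2 (adjusted p = 0.00699). Ripk4, a kinase of epithelial differentiation near the distal end (chr16:97741933-97763737), was at 27.0, 28.8 and 23.4 CPM in parental, 10.6, 14.6 and 7.93 in KO_1E7 and 37.4, 30.1 and 34.7 in CRISPR_1G2. It fell by 1.25 on the log2 scale against parental and by 1.62 against CRISPR_1G2 (adjusted p = 0.00479). Gnb1l fell by 1.62 on the log2 scale against parental, and Zdhhc23, a palmitoyltransferase, and Dexi each fell by 1.06. By the positions and strands of the count tables, 156 of the 460 genes overlap an antisense gene of chromosome 16 that passed the same count rule. Antisense genes below that rule were not looked for. Among the named genes these include Gm23935, Dexi, Prodh, Mpv17l, Gspt1, Polr2h, Ufd1, Umps, Trmt2a, Masp1, Dtx3l, Cxadr, Cmss1, Son and Brwd1. The strand setting of the counting is not given in the sources used here, so reads of such pairs cannot be told apart.

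All 5 genes called higher between KO_1E7 and parental lay in windows 2 to 6. Mpv17l, a peroxisomal protein gene (chr16:13903161-13949619) that overlaps an antisense gene, was at 2.35, 2.34 and 2.22 CPM in parental, 6.81, 7.74 and 6.91 in KO_1E7 and 1.86, 2.08 and 3.61 in CRISPR_1G2. The KO_1E7 libraries were above all others (log2 fold change of 1.63 ± 0.28 against parental, and adjusted p = 0.0127 against CRISPR_1G2). St6gal1, the sialyltransferase that adds sialic acid to N-glycans (chr16:23224740-23360350), was at 1.45, 1.13 and 1.25 CPM in parental, 3.6, 3.2 and 3.4 in KO_1E7 and 0.838, 0.662 and 0.735 in CRISPR_1G2. The 3 groups did not overlap, with log2 fold changes of 1.41 ± 0.24 against parental and 2.18 ± 0.25 against CRISPR_1G2 (adjusted p = 0.00251).

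Slc15a2, a peptide transporter, was at 2.6, 3.4 and 2.6 CPM in parental, 4.89, 9.64 and 6.94 in KO_1E7 and 3.42, 4.01 and 3.92 in CRISPR_1G2. It rose against parental by 1.32 ± 0.28 and did not pass against CRISPR_1G2 (0.92 ± 0.28, adjusted p = 0.0625). Dzip3, a ubiquitin ligase, was higher against parental by 0.71 ± 0.16. Epha6, an ephrin receptor, held 107 counts over the KO_1E7 libraries and 5 over each of the other groups, with KO_1E7 levels of 0.706, 0.246 and 2.06 CPM. All 3 were above the highest of the other libraries, at 0.110 CPM, and the gene had entered through that group.

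**Figure D5:**
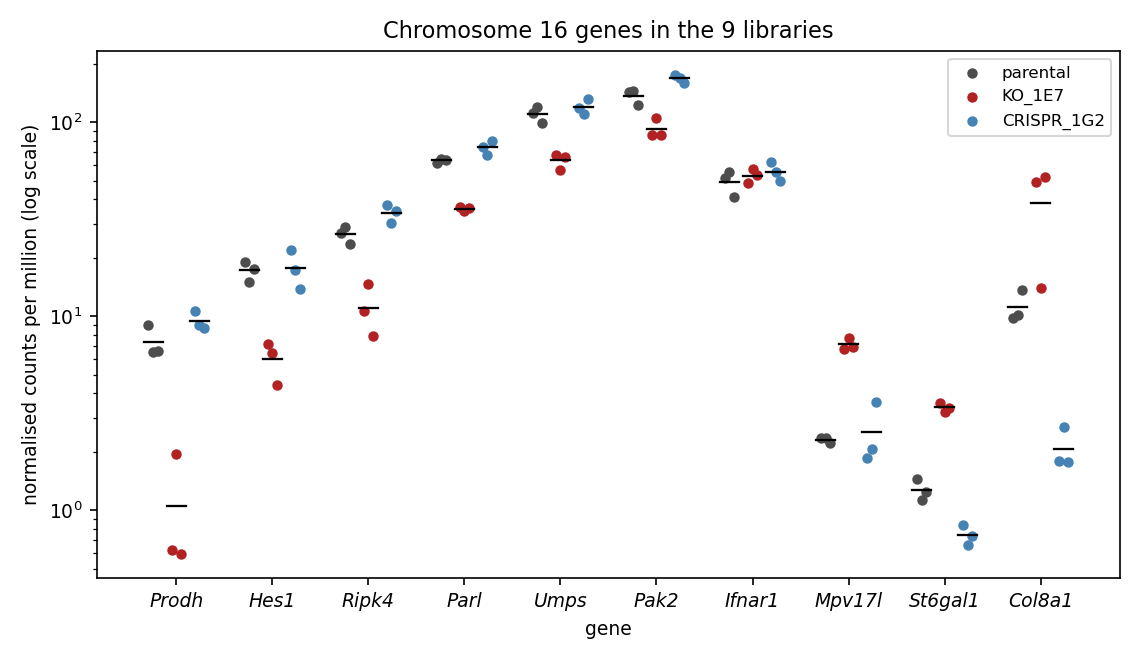
Normalised CPM (log scale) of 10 chromosome 16 genes in the 9 libraries, with points for libraries and bars for group means. Prodh, Hes1, Ripk4, Parl, Umps and Pak2 have all KO_1E7 points below the other groups, Mpv17l, St6gal1 and Col8a1 have them above, and Ifnar1 overlaps in all 3 groups.

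The 460 genes were also read by function. Each list of chromosome 16 genes is part of a chromosome chosen for its lower level. Its lower calls stand beside 46 of the 460 genes against parental and 125 against CRISPR_1G2. Over all genes tested the shares called lower were 2.74% and 6.92%, and no list was tested as a set. Of 20 mitochondrial and redox genes measured, 6 were called lower between KO_1E7 and parental (Mrpl40, Prodh, Tomm70a, Parl, Dnm1l and Cbr3), with 19 below the median of all genes and a median of -0.52, and 11 were called lower against CRISPR_1G2. Parl, a protease of the inner mitochondrial membrane, was at 62.0, 64.9 and 63.9 CPM in parental, 36.5, 34.7 and 36.0 in KO_1E7 and 74.4, 68.0 and 80.4 in CRISPR_1G2. Its groups did not overlap (-0.83 ± 0.11 against parental, and -1.06 ± 0.11 against CRISPR_1G2, adjusted p = 0.0019). Dnm1l, the mitochondrial fission dynamin, was at 152, 163 and 151 CPM in parental, 86.1, 119 and 97.3 in KO_1E7 and 188, 185 and 222 in CRISPR_1G2 (-0.62 ± 0.15 against parental, and -0.98 ± 0.15 against CRISPR_1G2, adjusted p = 0.00611). Opa1, which drives inner membrane fusion, passed against CRISPR_1G2 (-0.85 ± 0.13, adjusted p = 0.00629) and was not called against parental (-0.46 ± 0.13). Sod1, the cytosolic superoxide dismutase, was at 106, 119 and 77.1 CPM in parental and 69.0, 76.5 and 77.8 in KO_1E7, which overlapped.

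Of 19 genes of translation, RNA and protein turnover, 5 were called lower between KO_1E7 and parental (Gspt1, Polr2h, Ufd1, Umps and Rrn3) with a median of -0.40, and 8 were called lower against CRISPR_1G2. Gspt1, the translation termination factor eRF3, was at 292, 327 and 309 CPM in parental, 191, 183 and 183 in KO_1E7 and 334, 314 and 411 in CRISPR_1G2. Umps, the enzyme that completes pyrimidine synthesis and whose promoter is printed above, was at 112, 119 and 98.6 CPM in parental, 67.5, 56.8 and 66.2 in KO_1E7 and 119, 110 and 132 in CRISPR_1G2. In both genes KO_1E7 lay below all other libraries, with log2 fold changes against parental of -0.74 ± 0.13 and -0.79 ± 0.13, and against CRISPR_1G2 of -0.93 ± 0.13 (adjusted p = 0.00494) and -0.92 ± 0.13 (adjusted p = 0.00512). Rrn3, a factor of RNA polymerase I, fell by 0.64 on the log2 scale against parental.

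Among 17 genes of kinases, adaptors and cyclic AMP signalling, 3 were called lower between KO_1E7 and parental, Pak2 and Ripk4 among them, with a median of -0.50. Against CRISPR_1G2, 8 were called lower and Mylk higher. Pak2, a p21-activated kinase, was at 143, 146 and 123 CPM in parental, 85.9, 105 and 85.9 in KO_1E7 and 176, 170 and 160 in CRISPR_1G2 (-0.57 ± 0.13 against parental, and -0.87 ± 0.13 against CRISPR_1G2, adjusted p = 0.0061). Gsk3b, the glycogen synthase kinase of Wnt and insulin signalling, passed against CRISPR_1G2 (-0.92 ± 0.22, adjusted p = 0.0285) and was not called against parental (-0.85 ± 0.22). Crkl, an SH2 and SH3 adaptor, also passed against CRISPR_1G2 only, and its level in CRISPR_1G2 library 3 (183 CPM) was above those of the other libraries of that clone (92.9 and 92.1).

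Of 18 transcription factors and coactivators, Hes1 and Brwd1 were called lower between KO_1E7 and parental, with a median of -0.42, and 4 were called lower against CRISPR_1G2 (Crebbp, Hes1, Bach1 and Hira). Crebbp, the histone acetyltransferase that binds CREB, was at 53.5, 52.6 and 75.0 CPM in parental, 40.1, 42.5 and 41.8 in KO_1E7 and 60.2, 60.5 and 85.0 in CRISPR_1G2. The KO_1E7 libraries lay below the others (-0.54 ± 0.19 against parental, where it was not called, and -0.72 ± 0.19 against CRISPR_1G2, adjusted p = 0.0396). Of 15 genes of DNA replication, repair and chromatin assembly, Polq and Top3b were called lower against parental, with a median of -0.37, and 7 against CRISPR_1G2. Polq, the polymerase of end joining by microhomology, was at 34.3, 42.1 and 38.0 CPM in parental, 22.2, 26.3 and 22.5 in KO_1E7 and 48.2, 46.6 and 62.7 in CRISPR_1G2, with no overlap.

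The 14 adhesion, junction, matrix and protease genes had a median of -0.51 with 0 called against parental by edgeR, and 4 were called lower (Adamts5, Jam2, Muc4 and Tmprss2) and 1 higher (Col8a1) against CRISPR_1G2. Tmprss2, a membrane serine protease, was at 5.57, 6.92 and 8.25 CPM in parental, 2.01, 4.03 and 0.864 in KO_1E7 and 12.1, 13.0 and 20.3 in CRISPR_1G2, with 3 separate ranges (-2.70 ± 0.50 against CRISPR_1G2, adjusted p = 0.0127). Muc4, a membrane mucin of pancreatic tumours, held 5 counts over the KO_1E7 libraries, 25 over parental and 113 over CRISPR_1G2. Col8a1, a collagen of basement membranes, was at 9.83, 10.1 and 13.6 CPM in parental, 49.4, 13.9 and 52.2 in KO_1E7 and 1.78, 2.68 and 1.78 in CRISPR_1G2. KO_1E7 library 2 lay close to parental there, and the gene passed against CRISPR_1G2 (4.21 ± 0.50, adjusted p = 0.00289) and not against parental. The 18 genes of trafficking and transport had a median of -0.14, with St6gal1 and Slc15a2 called higher and 0 lower against parental. Against CRISPR_1G2, 4 were called lower (Snx4, Atp13a3, Abcf3 and Clcn2) and St6gal1 higher. At an unadjusted p below 0.05, 4 were lower against parental, and DESeq2 called 1 lower, Abcf3.

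Of 12 interferon and cytokine genes, 0 were called against parental, with a median of -0.17, and Il1rap was called higher and Dtx3l lower against CRISPR_1G2. The members differed among themselves. The receptor genes Ifnar1, Ifnar2, Ifngr2 and Il10rb had log2 fold changes between -0.03 and 0.10 against parental, Il1rap was at 0.63, and Socs1, Parp9, Parp14, Dtx3l and Rtp4, known as genes induced by interferon, were between -2.51 and -0.88. The remaining members, Ciita and Nfkbiz, were at -0.24 and -0.14. Parental library 3 was the highest for Parp14 and Rtp4 (34.7 and 36.5 CPM, against 4.05 to 11.5 in the other parental libraries). It was also the highest for Parp9 and Dtx3l (33.0 and 31.9 CPM, against 17.8 to 22.6). For Socs1 it was the lowest parental library, at 2.63 CPM. Ifnar1, a subunit of the type I interferon receptor (chr16:91485238-91507441), was at 51.5, 55.5 and 41.2 CPM in parental, 48.4, 57.3 and 53.2 in KO_1E7 and 62.0, 55.2 and 49.9 in CRISPR_1G2. Its neighbours Ifnar2, Ifngr2 and Il10rb, between chr16:91372783-91405589 and chr16:91547072-91565169, also overlapped between the groups. For Ifnar1 the log2 fold change of KO_1E7 against parental was 0.10 ± 0.15, and its sign turned without parental library 3 (-0.00) or with other libraries left out. Of 7 partners of these receptors on other chromosomes, 1 was called against parental, Jak1 (0.47 ± 0.10), at 106, 113 and 99.0 CPM in parental and 146, 141 and 152 in KO_1E7. Among the 6 membrane proteins of immune recognition measured, Tigit was called lower against CRISPR_1G2 (-2.49 ± 0.51, adjusted p = 0.0175) and Cd47, the ligand that inhibits phagocytosis, was at 112, 103 and 153 CPM in parental and 112, 147 and 117 in KO_1E7, which overlapped. In the adhesion, interferon and immune recognition lists edgeR called 0 genes against parental. At an unadjusted p below 0.05, 1 adhesion gene was higher and 4 lower, 1 interferon gene higher and 4 lower, and 1 immune recognition gene lower, where 10.4% of all genes tested were higher and 12.9% lower. DESeq2 called 1 adhesion gene higher and 3 lower, 3 interferon genes lower and 1 immune recognition gene, Tigit, lower (6.77% of all genes higher and 7.76% lower).

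By synteny, 27 of 37 genes of the human 22q11 interval were measured. For the calls in this paragraph too, 2.74% of all genes tested were called lower against parental and 6.92% against CRISPR_1G2. Between KO_1E7 and parental, 6 were called lower (Dgcr2, Mrpl40, Ufd1, Gnb1l, Trmt2a and Prodh), with 23 below the median of all genes and a median of -0.38, and 14 were called lower against CRISPR_1G2. Ufd1, a partner of the p97 segregase, was at 59.4, 68.7 and 68.2 CPM in parental, 40.6, 45.4 and 42.6 in KO_1E7 and 77.7, 78.1 and 100 in CRISPR_1G2, in 3 separate ranges. Of 68 measured orthologues of human chromosome 21, 5 were called lower against parental (Urb1, 1110004E09Rik, Cbr3, Brwd1 and Ripk4), with a median of -0.24, and 14 against CRISPR_1G2. Urb1, a ribosome biogenesis factor, was at 51.0, 54.2 and 66.4 CPM in parental, 29.3, 30.8 and 30.0 in KO_1E7 and 55.1, 52.4 and 73.6 in CRISPR_1G2 (-0.93 ± 0.16 against parental, and -1.01 ± 0.17 against CRISPR_1G2, adjusted p = 0.00772). KO_1E7 lay below both groups, which overlapped each other.

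All 16 genes with the promoter element were below the median of all genes in KO_1E7 against parental, with a median of -0.54. Of the 324 genes with a promoter and no match, 243 (75%) were below the median of all genes, with a median of -0.34. Of the 16, 3 were called lower (Senp2, Umps and Cmss1), as were 36 of the 324, where 2.74% of all genes tested were called lower. Whether the element plays a part was not tested. Senp2, a protease that removes SUMO (chr16:22009484-22049269), was at 108, 105 and 98.7 CPM in parental, 57.9, 66.0 and 61.3 in KO_1E7 and 120, 114 and 118 in CRISPR_1G2. The 3 groups did not overlap (-0.75 ± 0.11 against parental, and -0.93 ± 0.11 against CRISPR_1G2, adjusted p = 0.00264).

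In 3 equal sets of the 460 genes by mean CPM, the median of KO_1E7 against parental was -0.24 in the lowest, -0.37 in the middle and -0.39 in the highest, and in 3 sets by transcript length -0.43, -0.34 and -0.29 from the shortest to the longest.

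The 1 call between CRISPR_1G2 and parental was the long noncoding gene G730013B05Rik (chr16:50526304-50559435). It held 1 count over the CRISPR_1G2 libraries, 166 over parental and 506 over KO_1E7, where it was at 4.12, 3.88 and 4.62 CPM against 1.53, 1.16 and 1.88 in parental. The ratio of parental to CRISPR_1G2 was 140, with a 95% interval of 24.8 to 5558 for counting error only (adjusted p = 0.00357 with edgeR). Chodl, a membrane lectin gene, had 0 counts in CRISPR_1G2, 21 in parental and 124 in KO_1E7, the group through which it had entered. KO_1E7 stood 31.2-fold above the floor of 3 counts over the CRISPR_1G2 group, and the lower 95% limit of the ratio was 24.97 for counting error only. Most of its KO_1E7 counts came from libraries 1 and 3, at 1.86 and 1.19 CPM against 0.341 in library 2. Both genes were absent or nearly so in the libraries of one clone and present in all libraries of the other groups.

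Of the 13 genes called higher in KO_1E7 against CRISPR_1G2, 5 started in window 3. This is 8.77% of the 57 genes there, against 5.55% of all genes tested. The share was not particular to window 3, since window 6 had 3 of 34 (8.82%). In window 3, 19 (33.3%) were called lower, against 6.92%. The 5 were St6gal1, Masp1, Tprg, Il1rap and Mb21d2, named here after their values were seen. Masp1, a serine protease of the lectin complement pathway, was at 21.9, 15.7 and 27.4 CPM in parental, 43.3, 17.9 and 31.7 in KO_1E7 and 10.9, 9.56 and 12.6 in CRISPR_1G2 (1.49 ± 0.33, adjusted p = 0.0222). Mb21d2 was at 3.80, 2.32 and 3.41 CPM in parental, 2.40, 2.22 and 2.44 in KO_1E7 and 0.983, 0.442 and 0.490 in CRISPR_1G2. In both genes the CRISPR_1G2 libraries lay below all others, and KO_1E7 overlapped parental. Il1rap, the accessory chain of the interleukin-1 receptor, was at 11.6, 13.7 and 8.78 CPM in parental, 15.6, 16.4 and 20.7 in KO_1E7 and 9.87, 10.1 and 6.55 in CRISPR_1G2, with KO_1E7 above the others (0.99 ± 0.24, adjusted p = 0.0319).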

How the data were processed

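Poly(A) RNA of 9 libraries was sequenced after library preparation with the NEBNext Ultra II kit, per the labels' protocols. The authors deposited whole-number counts per gene, not normalised. Per the submitters' processing notes, the tools were bcl2fastq 2.17, STAR 2.5.2b, featureCounts of Subread 1.5.2 and DESeq2, with build GRCm38. Sources used here give neither the annotation release nor the strand setting. The 92 spike-in rows were left out. Genes with 10 or more counts in at least 3 libraries (16049 genes) were fitted together, all 3 groups in 1 model, with edgeR 4.0.16 in R 4.3.3 (TMM factors, quasi-likelihood test, no block, Benjamini-Hochberg adjustment over all genes). The code was tested on simulated data. CPM used TMM-scaled library sizes, and library levels used log2 CPM with a prior count of 2. CPM values carry no length and are compared only within a gene. Relative values subtract the median of all genes tested, which was -0.03, 0.02 and -0.03 in KO_1E7 against parental, CRISPR_1G2 against parental and KO_1E7 against CRISPR_1G2. Positions are those of the count tables.

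The members, gene lists and alternatives were chosen with earlier results of these data known. Named genes were the most abundant of each 10 Mb window, the largest called changes with a mean of at least 1 CPM in the higher group (8 each way against parental, 6 in the other contrasts), and genes of the lists. With 3 libraries a group, an exact permutation test cannot go below p = 0.10, and none was used. Alternatives were DESeq2 1.42.0, other size factors and filters, fits of fewer groups or libraries, a replicate block, other windows and other measures of level. Some genes are not reported here.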

Additional observations from a re-analysis of the deposited data

How the results depend on the processing

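The median of the chromosome was below that of all genes in every setting run in KO_1E7 against parental and in KO_1E7 against CRISPR_1G2, and above it in CRISPR_1G2 against parental. Adding back Trp63, Mx1, Mx2 and the Rpl and Rps genes left all 3 counts and medians close. The calls between KO_1E7 and parental, 51 in the report, were 118 with DESeq2, 29 without a filter on low counts, 96 without the third library of each group and 106 with a term for those libraries. With the alternatives added after seeing the data they were 176 (leaving out the third library of parental and of CRISPR_1G2) and 223 (also leaving out KO_1E7 library 2, median -0.44). Leaving out 1 library at a time gave 0 to 113 calls and medians of -0.39 to -0.32. Between KO_1E7 and CRISPR_1G2 these were 41 to 145 calls and medians of -0.56 to -0.46, and the added alternatives gave 221 and 255 calls. Between CRISPR_1G2 and parental, 1 call became 6 with DESeq2, 2 without a filter, 0 with only the compared groups, 6 with 3 libraries left out, and 1 to 4 with 1 library left out, and the median was 0.0857 without the third libraries, 0.0857 and 0.0855 in the added alternatives, and 0.0821 (without CRISPR_1G2 3) to 0.171 with 1 library left out. The share of windows with a median below 0 in that contrast, 10% of 10 Mb windows, was 20% at 5 Mb, 0% at 20 Mb and 0% on members at or above the median level. The cause of these moves was not tested.

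Measured as a share of summed counts, the level was -0.43, -0.30 and 0.73 in the parental libraries, -0.80, -0.75 and -0.87 in KO_1E7 and -0.25, -0.29 and -0.15 in CRISPR_1G2, where parental 3 carries the counts of Gm23935. Without the 3 genes related to ribosomal RNA, CRISPR_1G2 3 was at 0.33. Ifnar1 in KO_1E7 against parental was at -0.00756 and -0.0725 in the added alternatives, and at -0.00194 (without parental 3) to 0.192 with 1 library left out. Against CRISPR_1G2 it was at -0.145 to 0.0122 (without CRISPR_1G2 1). Cd47 in KO_1E7 against parental was at -0.103 (without KO_1E7 2) to 0.232 (without parental 3), and also below 0 without parental 1 (-0.0350) or parental 2 (-0.0836). A replicate block gave 70 calls in KO_1E7 against parental, 161 in KO_1E7 against CRISPR_1G2 and 2 in CRISPR_1G2 against parental. Deviations of same-numbered libraries from their group means had correlations of 0.235, 0.459 and 0.639 between parental and CRISPR_1G2. Parental 1 with CRISPR_1G2 2 (0.130) and parental 2 with CRISPR_1G2 1 (0.531) were positive too. Within a group the deviations of libraries 1 and 2 depend on library 3, so a pairing by number of libraries 1 and 2 is not shown. With KO_1E7 the same-numbered values were -0.0018, 0.0554 and 0.151 for parental and -0.0471, 0.122 and 0.0679 for CRISPR_1G2. Depth limits Chodl, Epha6, Muc4, G730013B05Rik, Adamts5, Cbr3, Atp13a5 and Ciita, with under 10 counts in most libraries of a group. In KO_1E7 libraries 1, 2 and 3, Adamts5 held 1, 4 and 5 counts and Cbr3 3, 24 and 9.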
